A study of Mus musculus with 53 samples.

Results

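The RNAs that encode oxidative phosphorylation were examined in single T1 pre-haematopoietic stem cells (T1 pre-HSCs), precursors of blood stem cells that were sorted from the aorta-gonad-mesonephros (AGM) region of E11 mouse embryos. Of 14833 genes in the deposited T1 pre-HSC table, 107 were taken by their names: those beginning with Nduf (complex I), Sdh (complex II), Uqcr (complex III), Cox4 to Cox8 (complex IV), Atp5 (complex V) or mt- (the mitochondrial genome), with 2 pseudogene names left out. They comprised 80 nuclear names taken as subunits by those prefixes, 7 Ndufaf assembly factors of complex I, 13 mitochondrial protein-coding genes, 2 mitochondrial rRNAs and 5 mitochondrial tRNAs. Cells labelled KO carried the genotype mH19 delta_DMR/+ (12 cells), and cells labelled wildtype carried mH19 flDMR/+ (9 cells used of 10, cell 19 being left out by the selection rule), so the controls carry a modified H19 allele as well. The DMR is the imprinting control region of H19. The labels used here name no Cre driver, no embryo and no litter for these cells. Each genotype was therefore treated as 1 sample, no test between genotypes was made, and every spread given is over cells.

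Oxidative phosphorylation moves electrons from NADH through complex I, or from succinate through complex II, to complex III, cytochrome c and complex IV, where oxygen is reduced. Complexes I, III and IV pump protons across the inner mitochondrial membrane, and complex V, ATP synthase, uses the gradient to make ATP. Complex II is encoded wholly in the nucleus, while the other complexes combine nuclear subunits with a few core subunits encoded in mitochondrial DNA, which is transcribed as long polycistronic RNAs that are cut into single transcripts. Blood stem cells are generally described as relying less on this pathway than the progenitors that they form.

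Nuclear subunit genes are known to share promoter elements for NRF1, for ETS-family factors such as GABP, and for YY1. The RefSeq promoter table (build GRCm38.p6) matched 68 of the 80 nuclear subunits, 3 through an older symbol, with 74 windows of 250 bases before a transcription start. The NRF1 letters (GCGCA, any base, then GCGC), searched on both strands, stood in 14 of the 74 windows (18.9%), beside 3.74% of all 32851 promoter windows and 10.6% of 2513 windows of compared genes. The ETS letters CCGGAAG or CTTCCGG stood in 12 windows (16.2%), against 6.91% of all windows and 16.2% of those of compared genes. The YY1 letters AAGATGGCG stood in 2 windows (2.70%), against 0.606% of all windows and 1.79% of those of compared genes. Such a match describes letters only. The 7 stretches below are shown because similar elements stood before subunits whose RNA lay lower, higher or near equal in KO cells. Each is given 5' to 3' on the strand of its gene, with the motif letters in capitals. They come from Sdhd (chr9:50603874-50603943, minus strand), Atp5g2 (chr15:102671065-102671104, minus), Ndufa11 (chr17:56717687-56717726, plus), Ndufs6 (chr13:73328483-73328513, minus), Cox6a1 (chr5:115348959-115349135, minus), Atp5k (chr5:108434425-108434464, minus) and Atp5j (chr16:84835016-84835079, minus).
Sdhd: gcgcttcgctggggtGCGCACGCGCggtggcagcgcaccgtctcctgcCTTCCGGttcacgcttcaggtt
Atp5g2: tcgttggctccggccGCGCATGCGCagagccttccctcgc
Ndufa11: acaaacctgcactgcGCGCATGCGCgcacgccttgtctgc
Ndufs6: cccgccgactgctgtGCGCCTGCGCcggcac
Cox6a1: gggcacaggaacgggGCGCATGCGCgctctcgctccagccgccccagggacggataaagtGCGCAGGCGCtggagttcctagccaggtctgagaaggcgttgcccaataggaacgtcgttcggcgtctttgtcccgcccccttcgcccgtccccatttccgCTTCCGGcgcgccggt
Atp5k: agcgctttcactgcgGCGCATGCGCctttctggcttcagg
Atp5j: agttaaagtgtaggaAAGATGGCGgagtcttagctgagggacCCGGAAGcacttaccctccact
Sdhd holds an NRF1 and an ETS match, Cox6a1 holds 2 NRF1 matches and 1 ETS match, and Atp5j holds the YY1 and ETS letters. Levels are in RPKM, reads scaled for the length of each transcript and for the size of each library, so they can be set side by side between genes. Every difference below is the mean of log2(RPKM + 1) over KO cells minus that over wildtype cells. By that measure Sdhd (-2.39), Atp5g2 (-3.08) and Ndufa11 (-1.96) lay lower in KO cells, and Ndufs6 (2.03) and Cox6a1 (2.74) lay higher. Atp5j (-0.74) lay lower by less than 1, and Atp5k (-0.20) lay near equal. Compared subunits with the NRF1 letters had a median difference of -0.64 (13 genes), and those without had -0.74 (51 genes). For the ETS letters the medians were -0.68 with (12 genes) and -0.75 without (52 genes).

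The labels were checked first. H19, the gene next to the deleted region, ran from 0 to 186 RPKM with a median of 28.1 in KO cells and from 231 to 1261 with a median of 477 in wildtype cells, so the groups did not overlap. Of the T1 pre-HSC and endothelial markers, Procr was detected (at least 1 RPKM) in 9 of the 12 KO cells and 8 of the 9 wildtype cells, and Cdh5 in 7 and 7. Runx1, which blood stem cell formation requires, was detected in 4 KO and 6 wildtype cells, with medians of 0.217 and 37.9 RPKM and a difference in mean log2(RPKM + 1) of -2.70. Of the 7 compared genes on that marker list, 6 lay lower in KO cells, with a median of -0.89. Ptprc, which encodes CD45, reached that level in 1 cell of each group. Summed macrophage markers reached 838 RPKM among KO cells and 1951 RPKM among wildtype cells. Of these, Lyz2 was detected in 6 KO and 6 wildtype cells (difference -1.92), and C1qb lay below 1 RPKM in every cell. Cd68 and Mpo were each detected in 2 KO and 0 wildtype cells, Mrc1 in 1 and 0, and Cx3cr1 in 1 and 1. Summed mesenchymal markers reached 1010 and 254 RPKM. At 1 RPKM or more, Col1a1 (4 KO cells, 1 wildtype cell), Col3a1 (3, 2), Dcn (2, 1) and Lum (1, 0) leaned to KO cells. Col1a2 (2, 3) and Pdgfrb (0, 1) leaned to wildtype cells, Twist1 was even (2, 2), and Pdgfra lay below 1 RPKM throughout. Summed erythroid markers reached 148 and 239 RPKM, and striated-muscle markers 936 and 75 RPKM. The part of these cell type markers in the results was not tested. Genes at 1 RPKM or more per cell numbered 1517 to 8408 in KO cells (median 3172) and 2067 to 5716 in wildtype cells (median 4176), and 4 KO cells (1, 9, 10 and 12) and wildtype cell 13 had fewer than 2500. Read depth per cell is not known from these values. The wildtype cell that was left out, cell 19, listed Actb and Rplp0 at 0, and its mitochondrial protein-coding genes summed to 8823 RPKM against at least 29745 RPKM in each of the 21 cells used.

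By mean over cells, nuclear subunits of complexes I, II and III lay lower in KO cells, those of complexes IV and V differed less, and most mitochondrial transcripts lay close to their wildtype level. Most of the undetected nuclear values in KO cells lay in 4 cells with few genes detected, as described next. A gene was compared when the average of its shares of KO and of wildtype cells at 1 RPKM or more was at least 50%, which kept 2854 genes and 90 of the 107 members. Of the 90, 34 lay lower by at least 1 in KO cells, where 29.4% of all compared genes did. A further 6 lay higher by at least 1, where 8.13% of all compared genes did. By sign alone, 66 lay lower, beside 68.5% of all compared genes. In no member did all KO cells lie below all wildtype cells, a pattern that 0.0701% of compared genes showed. The background itself lay low: the median difference over all compared genes was -0.41, so a member median near that value is not set apart.

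The 73 compared nuclear subunits had a median difference of -0.74, or -0.33 relative to the median of all compared genes, and 31 of them (42.5%) lay lower by at least 1. The 13 mitochondrial protein-coding genes had a median of -0.15, or 0.26 relative to it, and 3 of them lay lower by at least 1. Among nuclear subunits, the median was -1.01 for complex I (37 genes), -1.34 for complex II (3), -1.32 for complex III (8), -0.41 for complex IV (10) and -0.20 for complex V (15). Complexes IV and V thus lay at or above the all-gene median, but single cells moved them. Without wildtype cell 13 the complex V median was -1.05, below the all-gene median of -0.65 and level with complex I at -1.03. The complex IV median turned to 0.23, 0.28 and 0.04 without KO cell 1, 9 or 12, and the complex V median to 0.16 without KO cell 9. Of the 40 members that differed by at least 1, 19 lost that size when some 1 cell was left out, and none changed sign. The mitochondrial members of complexes I and IV had medians of -0.15 (7 genes) and 0.03 (3 genes).

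**Figure D1:**
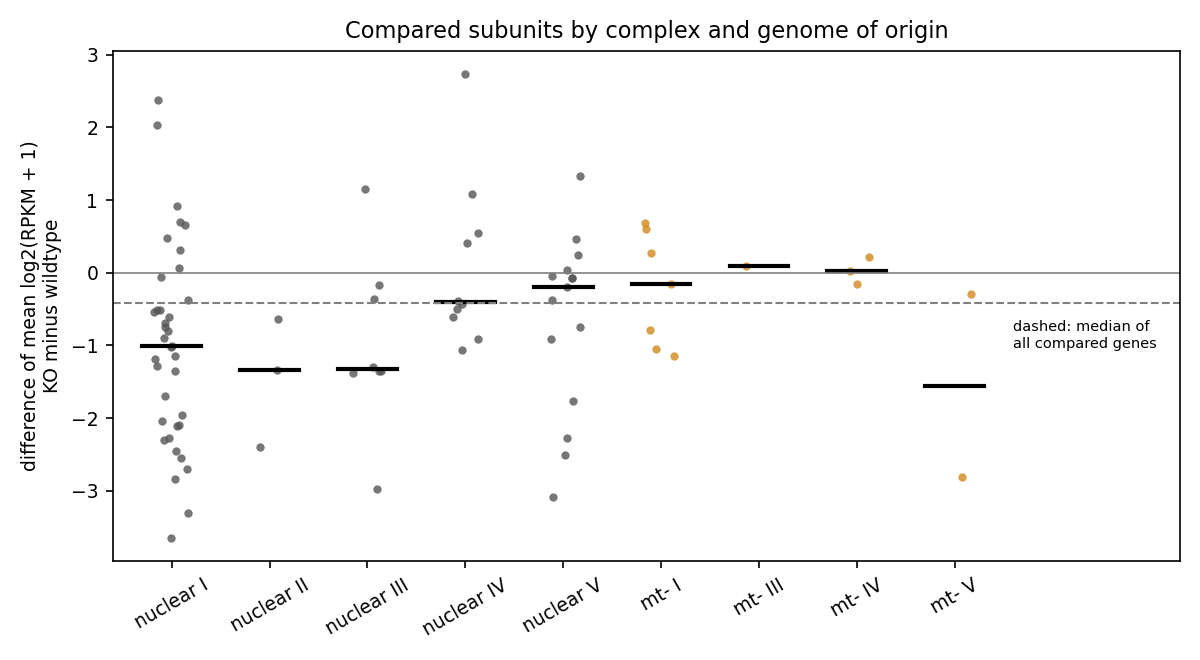
Each point is a compared subunit, placed by complex and by genome of origin, with its difference in mean log2(RPKM + 1), KO minus wildtype, on the vertical axis; black bars are medians and the dashed line is the median of all compared genes (-0.41). Nuclear complex I spans -3.65 to 2.38 around a median of -1.01, while most mitochondrial genes lie between -1.14 and 0.69.

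Detection of nuclear subunits followed the number of genes detected in a cell. KO cells had 40 to 77 of the 80 nuclear subunits at 1 RPKM or more (median 67), and wildtype cells had 55 to 76 (median 71). The 4 KO cells with the fewest genes had 40, 40, 50 and 42, and the other KO cells had 62 to 77. Across the 21 cells the number of other genes detected and the number of nuclear subunits detected had a Pearson r of 0.82 and a Spearman rho of 0.94. The rho was 0.97 within the 12 KO cells and 0.87 within the 9 wildtype cells. These are descriptions, since both counts share the depth of the same library.

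**Figure D2:**
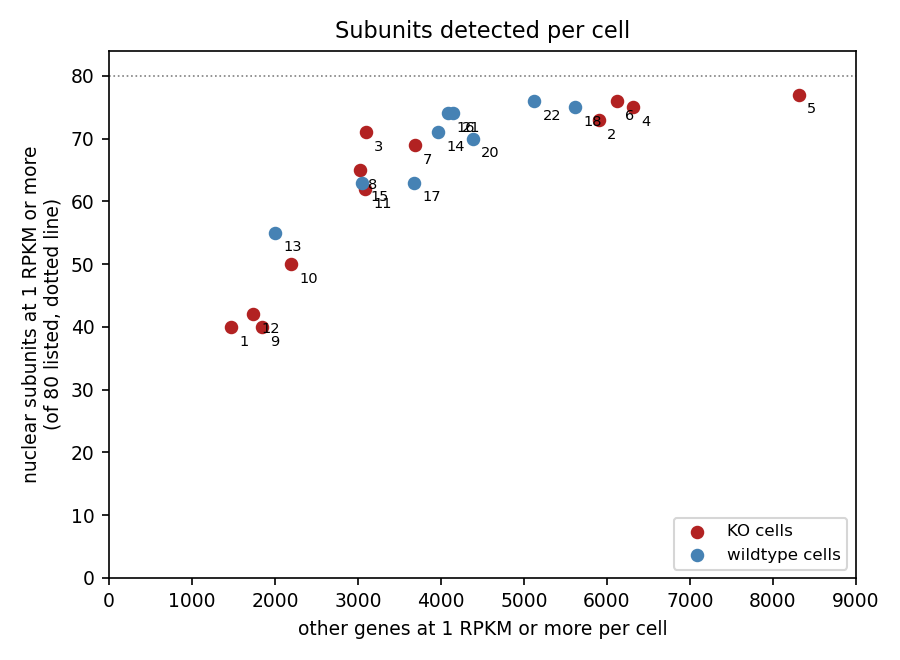
Points are single cells, numbered as in the labels, with the other genes at 1 RPKM or more on the horizontal axis and the nuclear subunits at 1 RPKM or more on the vertical axis. KO cells 1, 9, 10 and 12 sit at the lower left with 40 to 50 subunits, and wildtype cell 13 lies nearest to them with 55.

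Undetected values were concentrated in those cells. Over the 73 compared nuclear subunits, 154 of 876 KO values were under 1 RPKM, and 120 of the 154 came from the 4 KO cells with the fewest genes. In wildtype cells 48 of 657 values were under 1 RPKM, 18 of them in cell 13. For the 31 nuclear subunits that lay lower by at least 1, the counts were 97 of 372 in KO cells (76 in those 4) and 12 of 279 in wildtype cells. When each gene was averaged over the cells that detected it, the nuclear median was 0.15 and the all-gene median 0.02. The 31 subunits had a median of -0.24 by that measure. Complexes II (-1.34), III (-0.43) and V (-0.20) lay below that all-gene median, and complexes I (0.28) and IV (0.44) above it. With only the cells that held at least 2500 genes (8 KO and 8 wildtype), the nuclear median was 0.03 and the all-gene median 0.10. Among cells of 2500 to 6000 genes (5 KO and 8 wildtype) these medians were 0.05 and -0.25. In both cell sets the nuclear median was thus above 0. There complex II stayed below the all-gene median, at -0.68 (4 genes) and -1.88 (3 genes). Complex I stood at 0.0185 and 0.0604, and complex IV stood above that median at 0.74 and 0.55. Complex III, at -0.00488 and -0.15, lay below it in the first set and above it in the second. Complex V, at -0.06 and -0.29, lay below it in both. With medians over cells in place of means, in all 21 cells, the nuclear median was -0.19 and the all-gene median -0.34. The nuclear subunits as a whole thus no longer lay below the background. Complex III then stood level with it at -0.34 and complex II below it at -1.27. Complexes I (-0.22), IV (0.20) and V (-0.22) stood above it. The part of detection in the lower KO means was not tested beyond these values.

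Complex I, NADH dehydrogenase, is the largest of the complexes. All 7 compared core subunits, which carry the route of the electrons through the complex, lay lower in KO cells, with a median of -2.10. By sign alone, 68.5% of all compared genes did so. By at least 1, 6 of the 7 (85.7%) lay lower, beside 29.4% of all compared genes. Ndufs8, an iron-sulfur subunit, ran from 0 to 790 RPKM in KO cells (median 65.3) and from 1.11 to 865 in wildtype cells (median 264), a difference of -2.69. It was detected in 6 of 12 KO cells (50%, exact Clopper-Pearson 95% interval 21.1 to 78.9%, counting error only) and in 9 of 9 wildtype cells (66.4 to 100%). The groups overlapped, and the KO cells that detected it held 130 to 790 RPKM. Ndufv2, of the NADH-binding arm, was under 1 RPKM in KO cells 1, 9, 10 and 11 and ran up to 1531 in the others, against 188 to 591 in wildtype cells, for a difference of -2.45. Its medians, 310 and 341 RPKM, lay close, so the difference rests on the 4 cells near 0. Ndufs7, which carries the last iron-sulfur cluster before the quinone, had medians of 325 and 413 RPKM and a difference of -2.10. Ndufs3 (-1.18), Ndufs1 (-1.03) and the flavin-binding Ndufv1 (-0.06) differed less. Without wildtype cell 18 Ndufs1 differed by -0.56, and Ndufs3 by -0.63 without KO cell 3, 9, 10 or 12. Ndufs1 and Ndufv1 were each found in 6 KO and 5 wildtype cells. Of the 84 KO values for the core, 35 were under 1 RPKM, 24 of them in the 4 KO cells with the fewest genes, beside 10 of 63 in wildtype cells. Averaged over detecting cells only, Ndufs8 (1.54), Ndufs3 (0.93), Ndufv1 (0.61), Ndufv2 (0.53) and Ndufs7 (0.09) lay higher in KO cells. Ndufs1 (-1.31) lay lower by that measure.

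The 30 compared accessory subunits of complex I, which surround the core and help to assemble and steady it, were less uniform. In KO cells 13 (43.3%) lay lower by at least 1 and 2 (6.67%) higher, beside 29.4% and 8.13% of all compared genes. Their median was -0.77. Ndufa3 had the largest difference of any member, -3.65. It was listed at 0 in KO cells 8, 9, 10 and 12, lay at 10.6 RPKM in KO cell 11 and ran from 303 to 4894 in the other 7, against 593 to 2407 in all 9 wildtype cells. KO cells were thus split, with 5 values near 0 and 5 above the highest wildtype value. Ndufb11 was at 0 in 6 of 12 KO cells and 135 to 740 RPKM in 8 of 9 wildtype cells, with wildtype cell 17 at 0 (difference -3.30). Ndufc2 was detected in 7 KO and 8 wildtype cells, with medians of 179 and 511 RPKM (difference -2.84).

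Some accessory subunits lay the other way. Ndufa6 was detected in 11 KO cells (median 899, highest 3961 RPKM) and in 7 wildtype cells (median 811, highest 1727), a difference of 2.38. Wildtype cells 13 and 17 and KO cell 12 listed it at 0, and the medians of the groups lay close. Ndufs6, which helps to complete the NADH-binding arm, ran from 8.17 to 2703 RPKM (median 810) in KO cells and from 7.08 to 877 (median 134) in wildtype cells. Its group means were 8.91 ± 2.71 (SD over 12 cells) and 6.88 ± 2.50 (SD over 9 cells) on the log2 scale, so the difference of 2.03 was below 1 SD of either group. Ndufc1 was the most abundant nuclear complex I RNA per length, at 953 to 14780 RPKM (median 3258) in KO and 354 to 4062 (median 3067) in wildtype cells, with a difference of 0.66. Ndufa4, now assigned to complex IV although its name is of complex I, had medians of 2596 and 2060 RPKM and a difference of -0.52. Its hypoxia-associated paralogue Ndufa4l2 was at 0 in every cell used but wildtype cell 14 (74.7 RPKM). Of the 7 Ndufaf assembly factors, which are not part of the finished complex, only Ndufaf2 passed the detection filter, with 7 KO and 5 wildtype cells and a difference of 0.59. The other 6 were seen in 1 to 3 KO cells and 1 to 4 wildtype cells each.

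Complex II, succinate dehydrogenase, is also an enzyme of the TCA cycle and has 4 subunits, 3 of which were compared. Sdhd, a membrane anchor, ran from 0 to 611 RPKM in KO cells (median 161) and from 0 to 554 in wildtype cells (median 368), a difference of -2.39. The 5 KO cells under 5 RPKM were cells 1, 9, 10, 11 and 12, and wildtype cell 13 was at 0. The iron-sulfur subunit Sdhb was above 1 RPKM in all 21 cells, at 1.60 to 620 RPKM (median 331) in KO and 252 to 1103 (median 272) in wildtype cells. The mean difference of -1.34 came with a higher KO median, and 3 KO cells (1, 8 and 11) lay below 40 RPKM. Without KO cell 11 the difference was -0.81. Sdha, the flavin-binding catalytic subunit, was low in both groups, with medians of 7.18 and 26.1 RPKM and a difference of -0.64. Sdhc, the other anchor, was found in 6 KO cells and 2 wildtype cells, at up to 84.8 and 40.3 RPKM, and was not among the compared genes. Together the 4 genes made up 0.0574% of the RPKM total of KO cells and 0.0866% of that of wildtype cells on average, the smallest sums of the complexes.

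Complex III passes electrons from ubiquinol to cytochrome c, and 8 nuclear subunits were compared. In KO cells 5 of the 8 lay lower by at least 1, beside 29.4% of all compared genes. By the same size 1 of the 8 lay higher, beside 8.13%. The Rieske iron-sulfur protein Uqcrfs1, which hands electrons to cytochrome c1, was listed at 0 in 5 KO cells (1, 8, 9, 10 and 12) and ran up to 508 RPKM in the others. Wildtype cells reached 518 RPKM, with cell 15 at 0, and the medians were 16.4 and 118 RPKM (difference -2.98). The core protein Uqcrc1 had medians of 289 and 352 RPKM and a difference of -1.35 (-0.71 without KO cell 1). Its partner Uqcrc2 lay higher by 1.15, with medians of 372 and 141 RPKM, and was found in 9 KO cells and 6 wildtype cells. Without wildtype cell 14 or 15 that difference was 0.46. The small subunits Uqcrh (-1.35), Uqcrq (-1.37) and Uqcr11 (-1.30) lay lower, with differences of -0.51, -0.59 and -0.79 without KO cell 9. Uqcrb differed by -0.35 and Uqcr10 by -0.17. Uqcr10 was the most abundant of them per length, with medians of 2858 and 2253 RPKM. Uqcr11 was narrow in wildtype cells, 1424 to 2364 RPKM, and wide in KO cells, 14.1 to 9172 RPKM, so the KO cells lay on both sides of the wildtype range.

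Complex IV, cytochrome c oxidase, had 10 compared nuclear subunits, whose median difference of -0.41 was close to that of all compared genes. Cox6a1, the widely expressed form of subunit VIa, lay higher by 2.74, the largest positive difference of any member. It was found in 11 of 12 KO cells, with KO cell 10 at 0, and its highest values were 3394 RPKM (KO) and 2821 RPKM (wildtype). In wildtype cells 13 and 20 it was listed at 0 and in cell 17 at 0.452 RPKM, and the medians of the groups were 1239 and 673 RPKM. Cox6c ran from 1477 to 4030 RPKM in KO cells (median 2979) and from 22.6 to 3973 in wildtype cells (median 1750), a difference of 1.08, with wildtype cell 13 the lowest. Without that cell the difference was 0.36. Cox7c, the most abundant nuclear subunit of this complex per length, had medians of 2508 and 2254 RPKM and a difference of 0.41. Cox8a was at 0 in KO cells 1, 9 and 10 but had the higher KO median, 1140 against 497 RPKM. Its mean difference of -1.06 and its difference of medians of 1.19 on the log2 scale therefore had opposite signs. Without KO cell 1, 9 or 10 the mean difference was -0.35.

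Several complex IV subunits have tissue forms. In the Cox6b and Cox7a groups the widely expressed forms had the higher medians in both genotypes. Cox6b1 had medians of 2362 and 2288 RPKM. Its testis-associated form Cox6b2 was seen in 5 KO cells, at up to 1354 RPKM in KO cell 8, and in 2 wildtype cells at up to 239 RPKM. Cox7a2 had medians of 858 and 673 RPKM (difference -0.38), and Cox7a2l, a factor that joins complexes III and IV, had 353 and 450 RPKM (difference 0.54). The heart and muscle form Cox7a1 was under 1 RPKM in all 12 KO cells and reached 485 RPKM in wildtype cell 16 alone. Cox4i2, an oxygen-responsive form of subunit IV, was found in 1 cell of each genotype, at 20.5 and 60.8 RPKM. Its widely expressed counterpart Cox4i1 was not among the members, so the forms of subunit IV could not be set side by side.

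Complex V, ATP synthase, had 15 compared nuclear subunits, of which 4 (26.7%) lay lower by at least 1 and 1 (6.67%) lay higher by at least 1, shares no larger than those of all compared genes. The 5 genes of the F1 head and central stalk all lay lower by sign, with a median of only -0.07, and 4 of them turned sign when some 1 cell was left out. Atp5a1 (-2.28), the alpha subunit, was the exception by size, and its KO median (310 RPKM) exceeded its wildtype median (272 RPKM). The catalytic beta subunit Atp5b differed by -0.38. The 3 genes Atp5g1, Atp5g2 and Atp5g3 encode the same mature c subunit of the rotating ring, and their values varied. Atp5g2 was at 0 in KO cells 1, 8, 9 and 12 and ran up to 623 RPKM (median 247), against 35.1 to 913 (median 369) in wildtype cells, a difference of -3.08. Atp5g1, the most abundant of them, ran from 469 to 2782 RPKM in KO and from 17.4 to 1994 in wildtype cells, a difference of 0.25 that was -0.47 without wildtype cell 13. Atp5g3 differed by 0.46, and by -0.13 without wildtype cell 16. The direction of Atp5g1 and Atp5g3 therefore rests on single cells, while Atp5g2 stayed between -3.46 and -2.62 with any 1 cell left out. How the authors' counting split reads among these paralogues is not given in the sources used here.

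In the peripheral stalk and membrane part of complex V, 2 of 7 compared genes (28.6%) lay lower by at least 1, a share near that of all compared genes, and 1 lay higher. Atp5f1, subunit b of the stalk, was at or below 1 RPKM in KO cells 7, 8 and 11 and ran up to 796 RPKM, against 68.9 to 452 in wildtype cells (difference -2.51). Atp5o, which connects the stalk to the head, differed by -1.77, and by -0.96 without KO cell 1 or 10. Atp5l, subunit g, was between 805 and 7715 RPKM in all 12 KO cells and between 1425 and 3111 in 8 wildtype cells, with wildtype cell 13 at 0. Its difference of 1.33 rests on that cell, since it was 0.09 without it. Atp5k, subunit e, was the most abundant complex V RNA of nuclear origin per length and varied little, with 11.67 ± 0.90 in KO and 11.87 ± 0.54 in wildtype cells (SD over cells, log2 scale). Its difference of -0.20 was below the spread of either group.

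The same pair of mitochondrial protein-coding transcripts led in nearly every cell, and the order below them varied from cell to cell. mt-Atp6 (complex V) was the highest of the 13 in 20 of 21 cells and mt-Cytb (complex III) was the next in 19. Their median shares of the mitochondrial protein-coding sum were 39.4% and 21.9% in KO cells and 41.4% and 17.5% in wildtype cells. mt-Atp6 ran from 8719 to 21668 RPKM in KO cells (median 14608) and from 13094 to 24956 in wildtype cells (median 19206). Its means were 13.86 ± 0.38 and 14.16 ± 0.26 (SD over cells), so it differed by -0.29 with a large overlap. mt-Cytb ran from 3543 to 21762 RPKM (median 9256) and from 6023 to 16834 (median 7235), a difference of 0.09. Below them came mt-Nd1 (-0.15), mt-Co2 (-0.16), mt-Co3 (0.21) and mt-Co1 (0.03), none of which differed by more than 0.21. Complex I members mt-Nd2 (0.69) and mt-Nd4 (0.60) lay higher by mean, with KO medians of 1405 and 1576 RPKM beside wildtype medians of 1214 and 1206. In wildtype cell 13 these genes lay at 168 and 120 RPKM. mt-Nd5 had medians of 312 and 147 RPKM and a difference of 0.27.

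**Figure D3:**
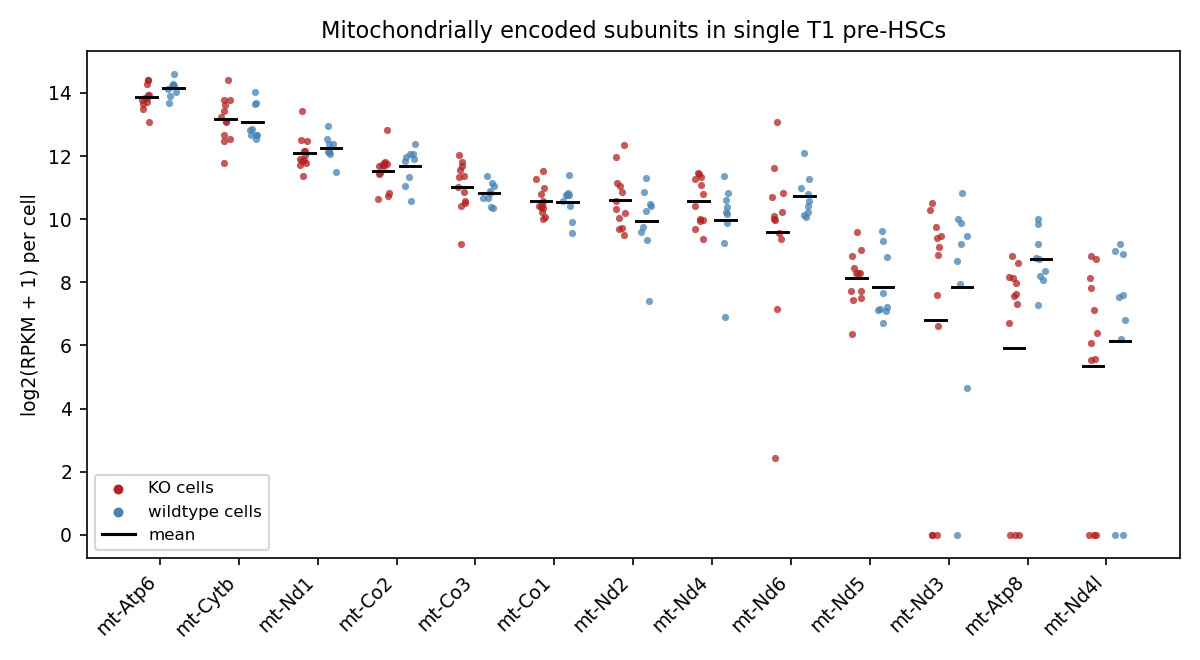
Each point is the log2(RPKM + 1) of a mitochondrially encoded subunit in a single cell, with KO cells in red, wildtype cells in blue, black bars for means, and genes ordered by level. mt-Atp6 and mt-Cytb lead in both groups, and the points at 0 belong to mt-Atp8, mt-Nd3 and mt-Nd4l.

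The mitochondrial protein-coding genes with the most negative differences were mt-Atp8, mt-Nd6 and mt-Nd3. mt-Atp8, an accessory membrane subunit of complex V, was at 0 in KO cells 1, 9 and 11 and reached 458 RPKM (median 194), against 154 to 1039 (median 427) in the 9 wildtype cells. Its difference was -2.81, and the 9 KO cells with a value overlapped the wildtype range. mt-Nd3, at 0 in 3 KO cells and 1 wildtype cell, differed by -1.05, and by -0.43 without KO cell 1, 7 or 12. mt-Nd4l, at 0 in 3 KO and 2 wildtype cells, differed by -0.79. At 204, 348 and 297 bases in the RefSeq annotation of GRCm38.p6, mt-Atp8, mt-Nd3 and mt-Nd4l are the shortest of the 13, and the zeros were confined to them. mt-Atp8 spans 7766 to 7969 of chromosome MT and shares 43 bases with mt-Atp6, so the value of either depends on how the authors' counting divided those reads. mt-Nd6, encoded on the strand opposite to the other mitochondrial members of complex I, ran from 4.38 to 8727 RPKM in KO cells (median 1064) and from 1069 to 4421 in wildtype cells (median 1529). Its difference of -1.14 was -0.49 without KO cell 8 (4.38 RPKM) and -0.92 without KO cell 12 (143 RPKM). It overlaps mt-Nd5 by 14 bases, and whether strand was used in counting is not given in the sources used here.

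Of the mitochondrial RNAs that encode no protein, mt-Rnr1, the small ribosomal RNA, ran from 554 to 10862 RPKM in KO cells (median 2611) and from 3946 to 7605 in wildtype cells (median 4868). Its means were 11.51 ± 1.22 and 12.42 ± 0.41, a difference of -0.92. mt-Rnr2 had medians of 4244 and 5347 RPKM and a difference of -0.39. The tRNA gene mt-Tq was found in 9 KO and 7 wildtype cells, at up to 32015 RPKM, a value that a length of 71 bases can raise from few reads. mt-Tl1, mt-Tp and mt-Tt were each found in 1 wildtype cell and no KO cell used, and mt-Tr was at 0 in all 21 cells.

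Summed levels gave a picture that differed from the gene-by-gene means. The 80 nuclear subunits made up 8.53 ± 1.77% (SD over 12 cells) of the RPKM total in KO cells and 7.66 ± 0.97% (SD over 9 cells) in wildtype cells, ranges of 6.28 to 11.1% and 5.76 to 9.01%. The mitochondrial protein-coding genes made up 4.48 ± 1.62% and 4.63 ± 1.01%. Per cell, the nuclear sum was 1.05 to 2.98 times the mitochondrial sum in KO cells (median 2.20) and 1.16 to 2.45 times in wildtype cells (median 1.65). The log2 of this ratio was 0.98 ± 0.50 in KO and 0.74 ± 0.39 in wildtype cells. The difference of 0.23 was smaller than the spread between cells of either genotype. Sums are set by the most abundant RNAs, such as Ndufc1, Atp5k and Uqcr10, whereas the mean of log2 values weights each gene equally. By complex, the mean nuclear shares of the total were 3.60 and 3.13% for complex I, 1.09 and 0.996% for complex III, 1.75 and 1.44% for complex IV, and 2.03 and 2.01% for complex V in KO and wildtype cells. The nuclear and mitochondrial sums had a Pearson r of -0.07 across 21 cells, as a description, and both are shares of the same total.

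**Figure D4:**
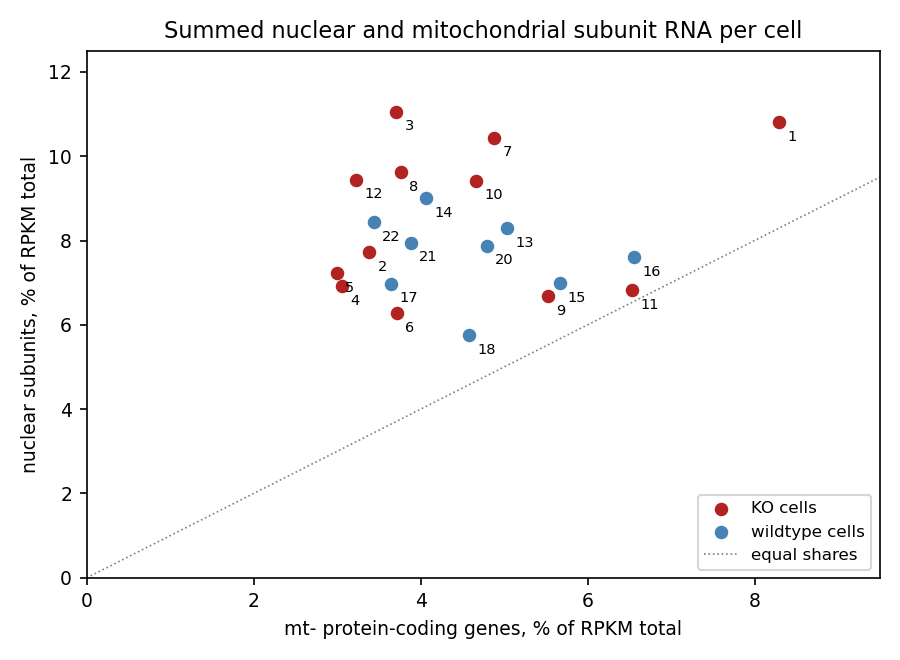
Each point is a cell, with the mitochondrial protein-coding genes as a percentage of the RPKM total on the horizontal axis, the nuclear subunits on the vertical axis, and a dotted line for equal shares. All 21 cells lie above the line, KO cells spread from 6.28 to 11.1% nuclear, and KO cell 1 lies farthest right at 8.29% mitochondrial.

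The size of the differences varied with level. Of the compared nuclear subunits with a mean level above 10 on the log2 scale, 3 of 17 (17.6%) lay lower by at least 1, beside 8.53% of all genes of that level, with a median of -0.43 where all genes of that level had -0.19. Between 8 and 10 the median was -0.54 (17 genes, against -0.24 for all genes), and between 6 and 8 it was -1.01 (29 genes, against -0.74). Between 4 and 6 the subunits had a median of -2.54, but only 7 of them lay there, against -0.68 for 718 genes. Ndufb11 and Uqcrfs1 belonged to this last band. The 9 mitochondrial genes above 10 had a median of 0.03. The 3 between 6 and 8 had a median of -1.05, close to the -1.01 of nuclear subunits there, and the 1 between 4 and 6 differed by -0.79. Across the 73 nuclear subunits, level and difference had a Spearman rho of 0.32, a description across genes that share the same cells.

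**Figure D5:**
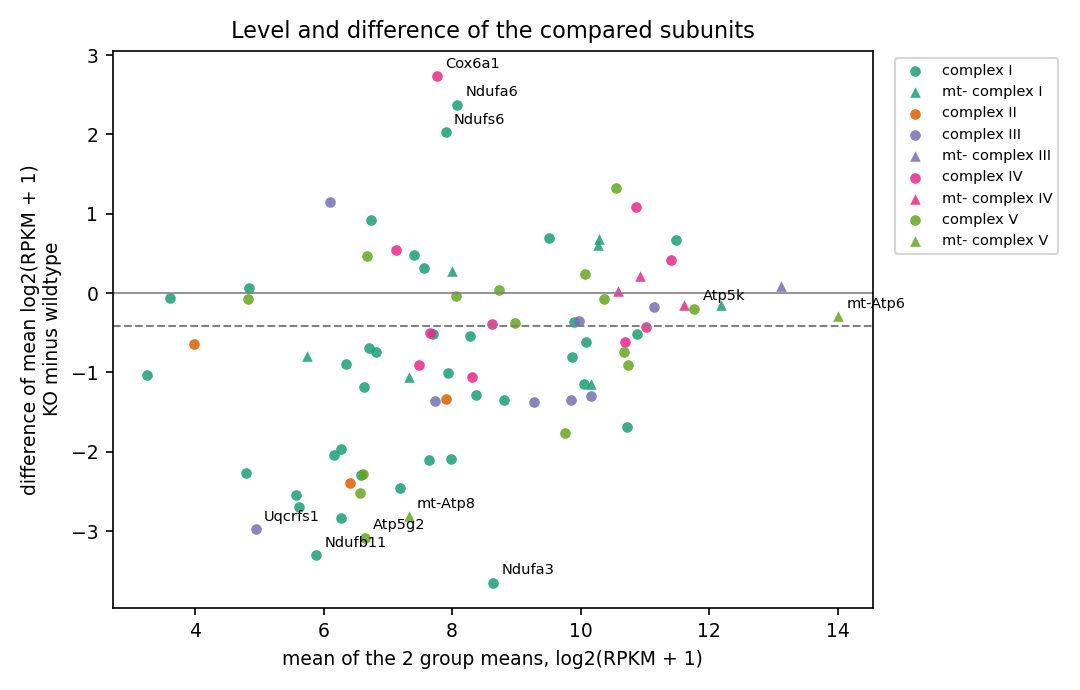
Compared subunits are placed by the mean of both group means in log2(RPKM + 1) and by their difference, KO minus wildtype, with circles for nuclear genes, triangles for mitochondrial genes, colours for complexes and a dashed line at the all-gene median of -0.41. The widest differences, from Ndufa3 at -3.65 to Cox6a1 at 2.74, lie at middle levels, and Atp5k and mt-Atp6 lie near 0 at high levels.

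Other genes of the pathway were read from lists that the name rule did not use. The electron carrier cytochrome c, Cycs, differed by -0.23 and cytochrome c1, Cyc1, by -0.75, with Cyc1 medians of 111 RPKM (KO) and 97.9 RPKM (wildtype). Usmg5, a small ATP synthase subunit, ran from 1806 to 9878 RPKM in KO cells and from 0 to 5593 in wildtype cells (difference 1.83). The 0 was wildtype cell 13, without which the difference was 0.57. Of 32 listed assembly factors for complexes II to V, 12 were compared. By at least 1, 6 (50%) lay lower and 2 (16.7%) higher, beside 29.4% and 8.13% of all compared genes. Those with the largest differences, Coa3 (-3.40) and Cox16 (-3.36), both serve complex IV assembly, and Coa3 had medians of 65.5 and 410 RPKM. Uqcc2, which serves complex III assembly, differed by almost as much in the other direction, 3.30, with medians of 1112 and 305 RPKM. Of 14 listed genes for mitochondrial DNA upkeep and expression, 3 were compared and all lay lower: the DNA-binding protein Ssbp1 (-2.16), Mterf3 (-2.11) and Slirp (-0.88). Tfam, which packages and transcribes mitochondrial DNA, was found in 5 KO and 3 wildtype cells and was not compared. Among regulators of mitochondrial biogenesis, 2 of 8 listed genes were compared, Nrf1 (0.82) and Nfe2l2 (-0.84). In the TCA cycle, 7 of 16 listed genes were compared with a median of -0.26, and the largest differences were those of Sucla2 (-1.22) and Ogdh (1.07). The 12 compared assembly factors of complexes II to V had a median difference of -0.95, where all compared genes had -0.41. Each of the other lists held 7 compared genes or fewer.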

How the data were processed

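Values are the RPKM that the authors deposited for single T1 pre-HSCs, with Cufflinks 2.1.0 and build mm10 named in the submitters' processing notes. Which aligner and gene annotation they used, and how reads shared with processed pseudogenes were counted, is not given in the sources used here. Deposited RPKM values keep no read counts, so no depth or counting error per gene is known, and an exact 0 can be a failed estimate. Each column was assigned by the cell number in its name (0 columns unassigned).

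The study also deposited 26 adult stem cells, whose table has no row with a name of the rule, and 5 methylation libraries. Neither was used here. Means of log2(RPKM + 1) over cells were subtracted (wildtype from KO), and the pseudocount of 1 shrinks the differences of low genes. A difference of 1 in size is a rule of size, not a test. A detected value is 1 RPKM or more. Scripts (Python 3.11.15, pandas 2.3.3, numpy 2.4.6, scipy 1.17.1) were tested on simulated data.

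Members and lists were chosen with earlier results of these data known. Named were all mitochondrial protein-coding genes, the most abundant and the most different subunit of each complex, the 10 most negative and 5 most positive differences whose mean and median agree in sign, tissue isoforms, Cyc1, Cycs, Tfam and up to 2 genes of each list. A gene that this rule takes is not reported here. Others named to complete a role or a promoter example were chosen after their values were seen. Alternatives were another pseudocount, scaling, filter, summary over cells, and cell sets, including each cell left out.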

Additional observations from a re-analysis of the deposited data

Results flagged for a closer look

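Of 55 quantities examined, the named genes and the ratio of nuclear to mitochondrial RNA, 17 (all of them genes) were such that 1 of the 9 wildtype cells lay far from the other 8, by a gap of more than 0.493 of the whole range of that group. Gaps were taken on the log2 scale, not on the RPKM printed below. For normally distributed values chance gives such a gap in about 1 in 20 groups. These values hold many zeros, so that rate need not apply. In Cox4i2, Cox7a1 and Ndufa4l2 the other 8 cells were all at 0, so any value above 0 in the remaining cell would have been flagged. The genes share cells, so the 17 are not independent. In 12 genes the distant cell was the lowest, and in 9 of these it was cell 13, the wildtype cell with the fewest genes detected. That cell held mt-Nd2 at 168 RPKM, mt-Nd4 at 120 RPKM, Cox6b1 at 227 RPKM, Cox8a at 10.0 RPKM, Cycs at 0.588 RPKM and Ssbp1 at 4.70 RPKM, and it listed Sdhd, Atp5l and Usmg5 at 0. Elsewhere, Uqcrfs1 was at 0 in cell 15, Ndufb11 at 0 in cell 17 and Coa3 at 6.23 RPKM in cell 17. In the other 5 genes the distant cell was the highest: Cox4i2 at 60.8 RPKM in cell 22, Cox6b2 at 239 RPKM in cell 21, Cox7a1 at 485 RPKM in cell 16, and Ndufa4l2 at 74.7 RPKM and Tfam at 569 RPKM in cell 14. Groups of more than 10 cells, so all KO values, were not examined in this way.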

How the results depend on the processing

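No paired analysis was possible because KO cells are numbered 1 to 12 and wildtype cells 13 to 22, so the genotypes share no replicate number. Pseudocounts of 0.1 and 10, an equal total per cell, and the other filters changed no direction of a complex median. With each cell shifted to an equal median, the all-gene median moved from -0.41 to 0.89. The nuclear median moved to 0.56, complex I to 0.29 and the mitochondrial genes to 1.15. Of 90 members, 11 lay lower and 33 higher by at least 1, beside 5.64% and 45.1% of all compared genes. Of the named genes with a difference of at least 1 in size, mt-Nd3 (0.25), mt-Nd6 (0.16), Cox8a (0.25) and Sucla2 (0.0786) turned positive. That shift moved every compared gene alike, so values relative to the all-gene median did not move and these turns say nothing about the members. Medians over cells left 16 of 90 members lower by at least 1, beside 35.5% of all compared genes. The complex IV median was then 0.20, Sdhb 0.28 and Cox8a 1.19. With the log2 ratio of nuclear to mitochondrial RNA taken from means of log2 values, its KO minus wildtype difference was -0.37. That is opposite in sign to the 0.23 from summed levels. The next alternatives were chosen after seeing the data, except the comparison of KO cells with at least the wildtype median of genes (2, 4, 5 and 6). In those, complexes I, II and III stood at 0.83, 1.97 and 0.0201, beside an all-gene median of 1.30. Of 92 members, 0 lay lower and 35 higher by at least 1, where 2.38% and 59.3% of all compared genes did. There mt-Nd3 (1.08), Ndufa3 (0.92), Sdhd (0.70), Uqcrfs1 (0.12), Atp5g2 (0.53), Ndufc2 (1.65), Ndufs8 (1.13), Atp5f1 (0.20), Cox8a (1.47), Tmem261 (2.00) and Mterf3 (0.66) turned positive. Of these, only Ndufc2, Cox8a and Tmem261 lay above that all-gene median. With cells of at least 2500 genes, complex I was 0.0185, and Ndufc2 (0.0185), Atp5l (-0.27) and Cox8a (0.65) turned. Of 92 members, 14 lay lower and 15 higher by at least 1, beside 14.5% and 21.2% of all compared genes. With 2500 to 6000 genes, complex I was 0.0604, and Atp5l (-0.19), Cox8a (0.60) and Ogdh (-0.96) turned. Of 90 members, 24 lay lower and 11 higher by at least 1, beside 29.2% and 16.4% of all compared genes. Over detected cells only, complex I was 0.28, and mt-Nd3 (0.23), Ndufs8 (1.54), Ndufv2 (0.53), Cox8a (1.54), Tmem261 (0.81) and Mterf3 (0.32) turned. Of 90 members, 9 lay lower and 10 higher by at least 1, beside 11.6% and 13.6% of all compared genes. With wildtype cell 19 included, the KO minus wildtype difference of the log2 ratio was -0.04 and the mitochondrial median 0.02.

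Leaving out each cell in turn, the nuclear median ran from -1.05 to -0.51, complex I from -1.25 to -0.63, complex II from -1.53 to -0.81, complex III from -1.44 to -0.55, complex IV from -0.50 to 0.28, complex V from -1.05 to 0.16, and the mitochondrial median from -0.19 to -0.06. Complex IV turned positive without KO cell 1, 9 or 12 and complex V without KO cell 9. Without wildtype cell 13 the complex V median was -1.05. The KO minus wildtype difference of the log2 ratio ran from 0.16 to 0.31. Members lower by at least 1 ran from 23 (without KO cell 1, where 23.8% of all compared genes lay lower) to 43. Those higher ran from 5 to 10 (without KO cell 12, where 9.96% of all compared genes lay higher). The all-gene shares moved as well. Lower by at least 1 were 23.8% (without KO cell 1) to 38.4% (without wildtype cell 13) of all compared genes. Higher by at least 1 were 5.52% (without wildtype cell 13) to 10.9% (without KO cell 1). The unknown read depth limits every statement on genes listed at 0.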
